A study of Ovis aries with 8 samples.

Results

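In the cortical plate of fetal sheep, the layer where new cortical neurons settle, 7 of the 27054 rows of the deposited count table were examined: ENSOARG00000000006, ENSOARG00000000010, ENSOARG00000000025, ENSOARG00000000027, ENSOARG00000000028, ENSOARG00000000032 and ENSOARG00000000033. They were chosen by identifier, as candidates for the subunits of respiratory complex I that the mitochondrial genome encodes. Earlier results of these data were known when the choice was made. The reasoning behind the choice was that the first 37 sheep Ensembl identifiers run in the order of the mitochondrial genes. That naming was made to depend on the counts, and the counts did not meet its condition. The 7 rows are therefore given by identifier, and no value below is a measurement of a named gene.

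As background to the choice, complex I takes electrons from NADH, hands them to ubiquinone and pumps protons across the inner mitochondrial membrane. Most of its subunits come from nuclear genes, and a few core membrane subunits come from mitochondrial DNA. Mitochondrial genes are copied as long joint transcripts that are cut into single messenger RNAs where transfer RNAs lie between them, and their messenger RNAs are usually abundant in brain tissue.

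The 8 libraries came from untreated Border Leicester/Merino fetuses at a gestational age of 90 days. Each of 2 ewes carried 2 of the fetuses, and each fetus gave 1 cortical plate library from a gyrus, a fold of the brain surface, and 1 from a sulcus, the furrow beside it, so there were 4 libraries per region. RNA was amplified by single primer isothermal amplification, a method for small inputs, so counts are not independent molecules. The Poisson intervals and the limits for a count of 0 below cover counting error only, whereas the intervals of fold changes also include the spread between libraries. Total counts were 14788987 to 23927215 per library, and CPM below means counts scaled to a library total of 1000000. The 2 libraries of ewe 2 fetus 1 carry column names with 1 digit more than their labels and were assigned to that fetus by exclusion. The tissue could not be checked against marker genes, because no source used here pairs the identifiers with symbols: the RefSeq gene table (35057 genes) matched 0 of the identifiers.

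The condition for naming asked that the candidates be among the abundant rows while the identifiers proposed as transfer RNAs between them stayed low. The first of these did not hold. The second held by the medians only, at 0 CPM for the proposed transfer RNAs and 0.347 CPM for the 7 candidates. ENSOARG00000000032 ranked 1 and ENSOARG00000000033 ranked 5 by mean CPM among the 20941 rows with a count. The other 5 rows lay below the median row, which had 2.22 CPM, at ranks 11368 (ENSOARG00000000006), 13987 (ENSOARG00000000028), 19111 (ENSOARG00000000010), 19318 (ENSOARG00000000025) and 19661 (ENSOARG00000000027). Under the limit set for naming, 4 of the rows had to be among the most abundant 5% of rows with a count, and 1 of the 4 was. Of the 22 identifiers proposed as transfer RNAs, 20 had no count in any library. The other 2, ENSOARG00000000034 and ENSOARG00000000037, had means of 7.06 and 14.1 CPM, above the median row.

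The same unevenness ran through the 6 other identifiers proposed as mitochondrial messenger RNAs. ENSOARG00000000035 ranked 2 with a mean of 28503 CPM, and ENSOARG00000000022 ranked 26 with 2559 CPM. ENSOARG00000000016 ranked 283 with 549 CPM, while the other 3 had 1.45 CPM (ENSOARG00000000023), 0.0858 CPM (ENSOARG00000000019) and no count (ENSOARG00000000021). Identifiers 1 to 37 stood in consecutive rows of the table. Among them, 16, 22, 32, 33 and 35 had means of 549 CPM or more, and all others 29.2 CPM or less. The sources used here do not say how reads that map to more than 1 place, or to overlapping rows, were counted, and its part in the low rows was not tested. Lengths of these rows were not used here, so levels of different rows are per row and not per length.

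**Figure D1:**
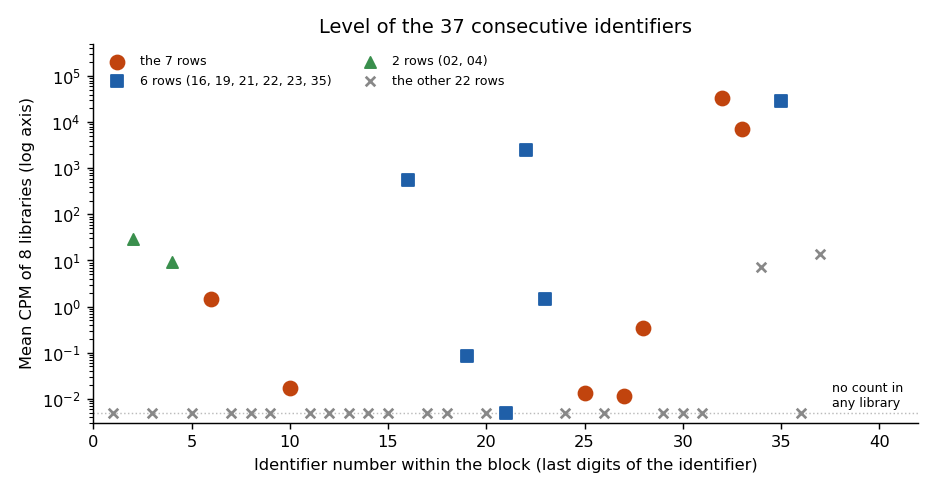
Mean CPM over 8 libraries (log axis) of the 37 consecutive identifiers, by the last digits of the identifier. Of the 7 candidate rows (circles), 2 stand at 7259 and 32967 CPM and 5 at 1.44 CPM or less; rows with no count in any library are drawn on the dotted line.

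ENSOARG00000000032 and ENSOARG00000000033 held nearly all counts of the 7 rows. Together they made up 99.996% of the summed mean CPM. In ENSOARG00000000032, the gyral libraries had 43936 CPM (ewe 1 fetus 1), 34582 CPM (ewe 1 fetus 2), 35811 CPM (ewe 2 fetus 1) and 11675 CPM (ewe 2 fetus 2). Its sulcal libraries had 44530, 39482, 38374 and 15345 CPM in the same order. The sulcal value was the higher one in each fetus, the 2 libraries of ewe 2 fetus 2 were by far the lowest, and the 2 regions overlapped almost completely. The row was the most abundant of the table in 5 of 8 libraries and the second in the rest.

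In ENSOARG00000000033, the gyral libraries had 9718, 6878, 7607 and 2628 CPM in the same order of fetuses. The sulcal libraries had 9929, 8195, 9407 and 3709 CPM. Again each sulcus was above its own gyrus, and ewe 2 fetus 2 was lowest in both regions. This row ranked between 4 and 6 in the libraries of the first 3 fetuses, and 25 (gyrus) and 12 (sulcus) in those of ewe 2 fetus 2. Means were 31501 ± 13854 CPM in gyri and 34433 ± 13004 CPM in sulci for ENSOARG00000000032, and 6708 ± 2974 and 7810 ± 2829 CPM for ENSOARG00000000033 (SD, n = 4 each). The spread between fetuses was thus several times the difference between the regional means.

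**Figure D2:**
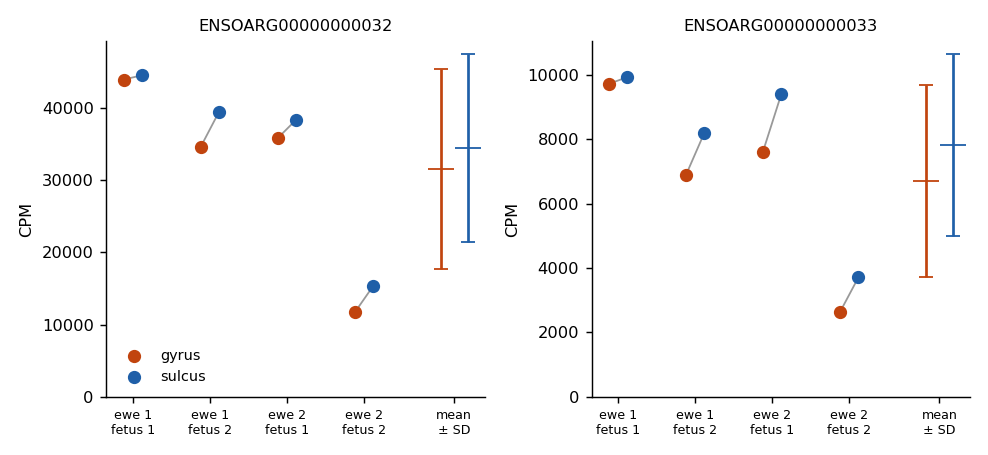
CPM of the 2 abundant rows in each library, gyrus (orange) and sulcus (blue) of a fetus joined by a line, with the mean ± SD of 4 libraries per region at the right. Both libraries of ewe 2 fetus 2 lie below all others in both rows, and each sulcal point lies above its gyral partner.

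The remaining 5 rows were scarce. ENSOARG00000000006 had gyral counts of 27, 17, 41 and 12 and sulcal counts of 33, 28, 44 and 12 in the same order of fetuses. In CPM these were 1.27, 0.710, 2.31 and 0.544 in gyri and 1.72, 1.38, 2.98 and 0.622 in sulci. The 2 regions overlapped, the fetuses kept 1 order in both regions (ewe 2 fetus 1 highest, then ewe 1 fetus 1, ewe 1 fetus 2 and ewe 2 fetus 2), and each sulcus was above its gyrus. Exact Poisson 95% intervals of a single library spanned, for the gyrus of ewe 1 fetus 2, 0.414 to 1.14 CPM.

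ENSOARG00000000028 had gyral counts of 3, 3, 6 and 1 and sulcal counts of 19, 13, 5 and 3. Counts were higher in the sulcus of both fetuses of ewe 1, whereas the 2 libraries of ewe 2 fetus 1 had 0.338 CPM each. Summed over the 4 libraries of a region, the 13 gyral counts correspond to 0.153 CPM (exact Poisson 95% interval 0.0814 to 0.261) and the 40 sulcal counts to 0.544 CPM (0.388 to 0.740). These intervals leave out the differences between fetuses. The row did not reach the expression filter of the test.

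ENSOARG00000000010 had 2 counts, both in the sulcus of ewe 2 fetus 1. ENSOARG00000000025 had 1 count in the sulcus of ewe 1 fetus 2 and 1 in the gyrus of ewe 2 fetus 1. ENSOARG00000000027 had 2 counts, both in the gyrus of ewe 2 fetus 2. In every other library these 3 rows were at 0. By a one-sided limit of 3 counts, this allows a level of up to 0.125 to 0.203 CPM at these depths. The upper ends of exact Poisson 95% intervals for a count of 0 were 0.154 to 0.249 CPM. No difference between regions was detectable for them at this depth.

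**Figure D3:**
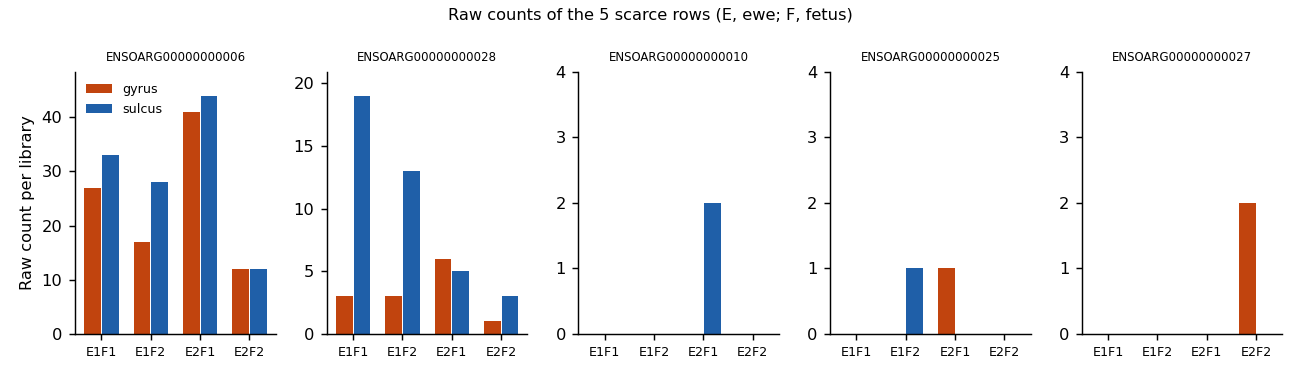
Raw counts per library of the 5 scarce rows, gyrus in orange and sulcus in blue, with a separate vertical axis for each row. ENSOARG00000000006 reaches 44 counts and ENSOARG00000000028 reaches 19, while the other 3 rows have 2 counts each over all 8 libraries.

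Gyrus and sulcus were then compared within fetuses, which is the comparison the series was designed for. For ENSOARG00000000032 the log2 ratio of gyral to sulcal CPM was -0.02 and -0.19 in the fetuses of ewe 1 and -0.10 and -0.39 in those of ewe 2. For ENSOARG00000000033 it was -0.03 and -0.25, then -0.31 and -0.50. For ENSOARG00000000006 it was -0.44 and -0.96, then -0.37 and -0.19. All 3 rows thus had the lower CPM in the gyrus of 4 of 4 fetuses (two-sided exact permutation test by sign flips, p = 0.125 for each row, the lowest that 4 pairs can reach), as did 5.41% of the 13221 rows that passed the filter. With TMM scaling, which sets libraries level over the bulk of rows, the 2 abundant rows were lower in 3 of 4 fetuses only, since ewe 1 fetus 1 turned to 0.04 and 0.02 (the same exact permutation test, p = 0.25 for each row).

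None of these differences passed the test across the table. With the fetus as a block, edgeR's quasi-likelihood test called 0 of the 3 rows that passed the filter, and 0% of the 13221 rows tested. For ENSOARG00000000032 the log2 fold change was -0.19 ± 0.10 (SE; 95% interval -0.41 to 0.03; edgeR adjusted p = 0.99). ENSOARG00000000033 gave -0.28 ± 0.10 (95% interval -0.51 to -0.06; edgeR unadjusted p = 0.0186, adjusted p = 0.99). An unadjusted p under 0.05 was found for this 1 of the 3 rows and for 3.87% of all rows tested. ENSOARG00000000006 gave -0.50 ± 0.48 (95% interval -1.55 to 0.55; edgeR adjusted p = 0.99). The median of the 3 was -0.28, and the median over all rows tested was 0.0048. The intervals of the 2 abundant rows exclude a 2-fold difference in either direction, and that of ENSOARG00000000006 does not.

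The fetus with the lowest levels also had the largest regional difference in the 2 abundant rows. Without ewe 2 fetus 2 the log2 fold changes were -0.14 for ENSOARG00000000032 and -0.23 for ENSOARG00000000033. In that fit edgeR called 0 of the 3 rows, and 1 of all 13095 rows tested. Within the fetuses of ewe 1 alone the log2 fold changes were -0.13 and -0.17, and within those of ewe 2 alone -0.23 and -0.38 (edgeR adjusted p at least 0.536). The difference between the ewes was tested directly. It was -0.10 ± 0.20 for ENSOARG00000000032, -0.22 ± 0.20 for ENSOARG00000000033 and 0.44 ± 1.04 for ENSOARG00000000006 (ewe 2 minus ewe 1, log2, SE; edgeR adjusted p of 0.955, 0.867 and 0.965). The interaction thus called 0 of the 3 rows, against 0.00756% of all rows tested.

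**Figure D4:**
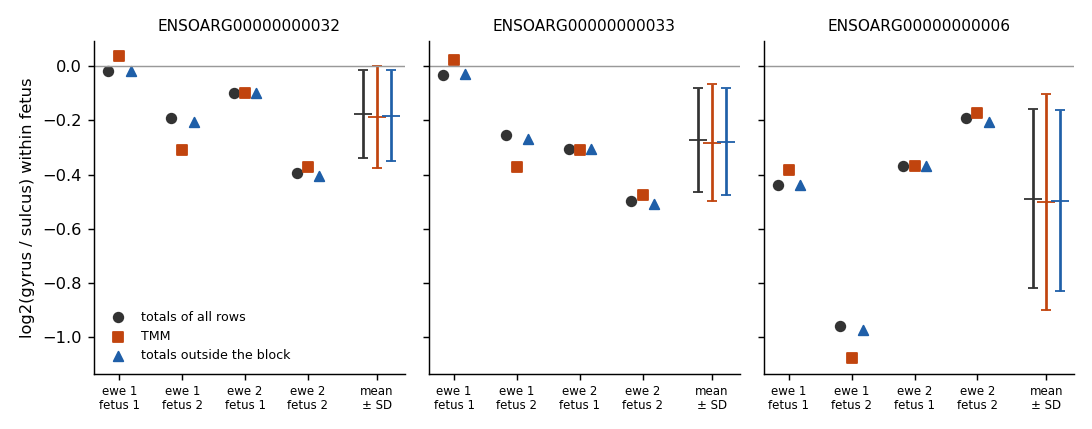
Log2 ratio of gyrus to sulcus in each fetus for the 3 rows that passed the filter, under 3 scalings, with the mean ± SD over 4 fetuses at the right of each panel. Points lie below 0 in each fetus apart from ewe 1 fetus 1 with TMM, where the 2 abundant rows stand at 0.04 and 0.02.

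Differences between fetuses were larger than those between regions. Averaged over its 2 libraries, ENSOARG00000000032 had levels of 44233 CPM (ewe 1 fetus 1), 37032 CPM (ewe 1 fetus 2), 37092 CPM (ewe 2 fetus 1) and 13510 CPM (ewe 2 fetus 2). The last value was 34.2% of the mean of the other 3 fetuses. For ENSOARG00000000033 the 4 values were 9823, 7537, 8507 and 3169 CPM, the last being 36.7% of the mean of the rest. For the scarce ENSOARG00000000006 they were 1.49, 1.05, 2.64 and 0.583 CPM, the last being 33.8%. The 2 abundant rows thus stood at a similar share of the other fetuses in ewe 2 fetus 2. The share of ENSOARG00000000006 was close to theirs but rested on 12 counts in each library of that fetus. The mean it was set against also included the 2.64 CPM of ewe 2 fetus 1. The highest fetus was not the same one: ewe 1 fetus 1 for the 2 abundant rows and ewe 2 fetus 1 for ENSOARG00000000006.

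The variation between fetuses was tested against that within them. The fetus term passed for 2 of the 3 rows, against 8.86% of all 13221 rows. The fitted range from the lowest to the highest fetus was 1.99 on the log2 scale for ENSOARG00000000032 (edgeR adjusted p = 0.000245) and 1.92 for ENSOARG00000000033 (edgeR adjusted p = 0.000388). For ENSOARG00000000006 it was 2.36 (edgeR adjusted p = 0.143). Both calls rested on ewe 2 fetus 2. Without it, 0 of the 3 rows were called, against 5.82% of 13095 rows tested, with ranges of 0.33 and 0.46 for the 2 abundant rows (edgeR adjusted p of 0.361 and 0.207). With the fetuses left out one at a time in turn, the other 3 choices kept both calls. Over all rows they called 908 of 13337 (without ewe 1 fetus 1), 1101 of 13262 (without ewe 1 fetus 2) and 463 of 13386 (without ewe 2 fetus 1). A low share of the most abundant rows in this fetus was known from earlier work on these data, so the test is no independent evidence for it. Sampling, RNA quality and amplification of a fetus cannot be told apart from the fetus itself, and in tissue samples fewer cells with a transcript cannot be told apart from less of it per cell.

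Other abundant rows of the block were low in the same fetus. ENSOARG00000000035 had 34.2% of the mean of the other 3 fetuses there, ENSOARG00000000022 had 38.1% and ENSOARG00000000016 had 39.98%. The fetus term passed for each of these 3, against 8.86% of all 13221 rows. It did not pass for ENSOARG00000000023 (edgeR adjusted p = 0.295), the only other row tested among the 6 others proposed as messenger RNAs. Between gyrus and sulcus, edgeR called 0 of these 4 rows, and 0% of all 13221 rows tested. Log2 fold changes of the 4 rows were -0.11 to -0.08. ENSOARG00000000002 and ENSOARG00000000004, proposed as ribosomal RNAs, had means of only 29.2 and 9.12 CPM. The fetus term passed for ENSOARG00000000002 (edgeR adjusted p = 0.0328) and not for ENSOARG00000000004 (edgeR adjusted p = 0.0813). All 37 identifiers together took 7.54% to 9.18% of the counts in the first 3 fetuses, and 2.57% (gyrus) and 3.39% (sulcus) in ewe 2 fetus 2.

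The 2 abundant rows kept nearly the same proportion to each other. Counts of ENSOARG00000000033 were 19.9% to 24.5% of those of ENSOARG00000000032 in the 8 libraries, a range of 1.23-fold, although the level of ENSOARG00000000032 itself ran from 11675 to 44530 CPM. The percentage was 22.1, 19.9, 21.2 and 22.5 in gyri and 22.3, 20.8, 24.5 and 24.2 in sulci, in the same order of fetuses. It was lower in the gyrus of 4 of 4 fetuses, by 1.49 ± 1.33 percentage points (SD, n = 4), and the 2 regions overlapped. ENSOARG00000000035 varied more against ENSOARG00000000032, from 73.0% in the sulcus of ewe 1 fetus 1 to 108% in the gyrus of ewe 2 fetus 1. This percentage was the higher one on the gyral side in 3 of 4 fetuses. Counts of ENSOARG00000000022 were 6.54% to 9.11% of those of ENSOARG00000000032, a range of 1.39-fold. That percentage was lower in the gyrus of 0 of 4 fetuses. For ENSOARG00000000016 the range was 1.87-fold, with the lower value in the gyrus of 1 of 4 fetuses. Whether reads of ENSOARG00000000032 and ENSOARG00000000033 could fall on both rows is not known, because the sources used here give neither the positions of the rows nor the use of strand in counting.

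**Figure D5:**
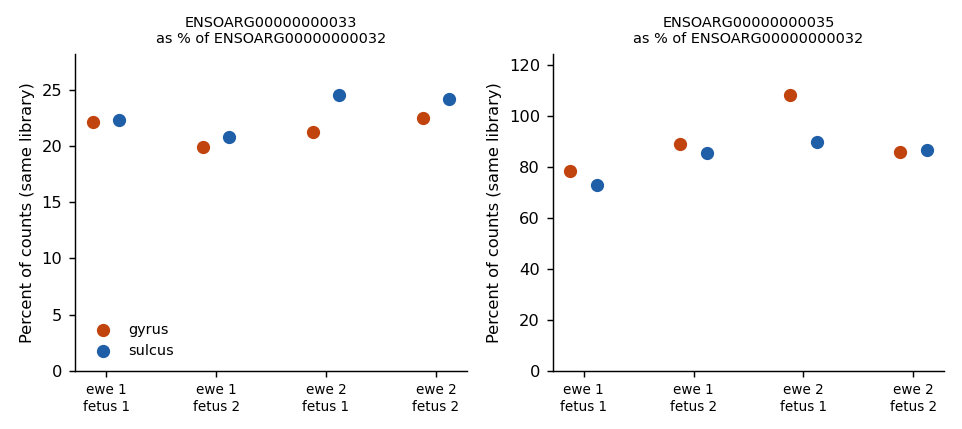
Counts of ENSOARG00000000033 (left) and ENSOARG00000000035 (right) as a percentage of those of ENSOARG00000000032 in the same library, gyrus in orange and sulcus in blue. The left values stay within 19.9% to 24.5%, including the libraries of ewe 2 fetus 2, and the right values range from 73.0% to 108%.

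Summed, the 7 rows took 5.37%, 4.15%, 4.34% and 1.43% of all counts in the gyri and 5.45%, 4.77%, 4.78% and 1.91% in the sulci, in the same order of fetuses. The gyral share was lower in 4 of 4 fetuses, by 0.403 ± 0.230 percentage points (SD, n = 4). Of the 13 identifiers proposed as messenger RNAs the 7 rows held 54.9 ± 3.4% of the counts in gyri and 57.0 ± 2.19% in sulci, again lower in each gyrus. The 37 identifiers together differed by -0.419 ± 0.572 percentage points (gyrus minus sulcus, SD, n = 4), a mean close to that of the 7 rows with a wider spread, and 2 of the 4 fetuses had the lower value in the gyrus.

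Rows outside the block with the most similar profile were sought by the Pearson correlation, over the 8 libraries, of log2 CPM with the mean log2 CPM of the 7 rows, among 4398 rows with a mean of 30 CPM or more. The closest were ENSOARG00000013400 (r = 0.954, mean 667 CPM) and ENSOARG00000000470 (r = 0.937, mean 106 CPM). ENSOARG00000013400 ran from 490 CPM in ewe 2 fetus 2 to 832 CPM in ewe 2 fetus 1. ENSOARG00000000032 itself correlated at 0.878 and ENSOARG00000000033 at 0.905 with that mean, since each of the 5 scarce rows weighs as much in it as an abundant one. The 8 libraries include pairs from the same fetus and differ in depth, so these values are a description only.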

How the data were processed

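The authors deposited raw counts per sheep Ensembl identifier in 8 columns. The submitters' processing notes name STAR 2.4.2a, featureCounts and edgeR 3.4.2. For the genome build, annotation release, strand setting and handling of reads with several positions, the entry is "not given in the sources used here".

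Rows were tested with edgeR 4.0.16 (R 4.3.3; quasi-likelihood F test, robust, TMM scaling, default expression filter with minimum count 10, 13221 rows kept). Terms were fetus, as block, and region; the fetus terms and a region by ewe term were tested likewise. P-values were Benjamini-Hochberg adjusted over all rows tested, with a limit of 0.05. The series design pairs both regions of a specimen. Deviations from the region means correlated at 0.209 to 0.432 within fetuses. CPM used totals over all rows, and log2 CPM for profiles a prior count of 2. The fit was first tested on simulated data with known changes. The alternatives included DESeq2 1.42.0 and limma-voom (limma 3.58.1). The members and lists were chosen with earlier results of these data known. The rows given by identifier were the 7 chosen rows, some others of the block and, from a profile search, the 2 of highest correlation.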

Additional observations from a re-analysis of the deposited data

Results flagged for a closer look

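Of 21 sets of 4 values examined (CPM of the 7 rows, their summed share, the proportion of the 2 abundant rows and the log2 ratios of gyrus to sulcus), 4 had a single library whose gap to the nearest other value, as a share of the range of the 4 values, exceeded Dixon's critical value. Such gaps arise by chance in about 1 of 20 sets of ordinary values. That rate does not apply to these 4 sets, which belong to rows with 2 counts in all: with 3 values at 0, any count in the fourth library exceeds the limit. They were the gyrus of ewe 2 fetus 1 in ENSOARG00000000025 (0.0563 CPM, 1 count), the gyrus of ewe 2 fetus 2 in ENSOARG00000000027 (0.0907 CPM, 2 counts), the sulcus of ewe 2 fetus 1 in ENSOARG00000000010 (0.135 CPM, 2 counts) and the sulcus of ewe 1 fetus 2 in ENSOARG00000000025 (0.0493 CPM, 1 count). The other 3 libraries of each set were at 0, and each value lies below the level of 3 counts in its library. In the 2 abundant rows the low libraries of ewe 2 fetus 2 did not exceed this limit.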

How the results depend on the processing

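None of the rows tested among the 7 was called between gyrus and sulcus under any of the 14 alternatives. The most calls over all rows were 5 of 20941, without the low count filter. Log2 fold changes of the 3 rows past the default filter stayed below 0 in each alternative that tested them, at -0.26 to -0.13 for ENSOARG00000000032 (edgeR, DESeq2 or limma-voom adjusted p at least 0.738), -0.38 to -0.17 for ENSOARG00000000033 (at least 0.359) and -0.72 to -0.27 for ENSOARG00000000006 (13 alternatives). Without the replicate block, the count was also 0, with a median of -0.22 over the tested rows, against -0.28. That median was -0.44 within ewe 1 alone, where ENSOARG00000000028 also passed the filter (log2 fold change -2.56), and -0.38 to -0.23 with a fetus left out. Between fetuses 2 rows were called in 10 of 11 alternatives, and 0 to 2 with a fetus left out, the 0 being without ewe 2 fetus 2. The calls over all rows moved far more. They were 1172 of 13221 in the main fit, 463 of 13386 without ewe 2 fetus 1 and 2605 of 13221 with DESeq2. The interaction with ewe called 0 in each of 7. Its most calls over all rows were 48 of 20941, without the low count filter. The gyrus minus sulcus difference of the summed share was -0.403 percentage points, -0.511 to -0.331 with a fetus left out, and -2.06 as a share of the 13 identifiers, by another denominator. Without the low count filter all 7 rows were tested. ENSOARG00000000028 gave -1.71 ± 1.24 and ENSOARG00000000027, with 2 counts, 1.88 ± 2.68 (SE, edgeR adjusted p = 0.998 each). Rows with 2 counts allow no comparison at this depth.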
